A study of Mus musculus with 20 samples.

Results

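The results concern how glucagon and T3 acted together on liver RNA in a design that crossed presence and absence of each hormone. Of the 20 libraries in the series, 16 belong to the crossed design, 4 in each group. The livers were from male mice on a western diet that were treated daily for 16 days. The Gluc+T3 mice received both hormones, the Gluc mice glucagon, the T3 mice triiodothyronine, and the Control mice carry the label Control with no vehicle named. Each library is 1 liver of 1 mouse. Neither the doses, the mouse strain and age, nor the hour at which livers were taken are given in the sources used here. The interaction of a gene is its log2 level in Gluc+T3, minus that in Gluc, minus that in T3, plus that in Control. It is 0 when the 2 single effects multiply, negative when the level with both hormones is lower than that product, and positive when it is higher. The same number is the glucagon effect with T3 minus the glucagon effect without T3, and the T3 effect with glucagon minus the T3 effect without it.

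Glucagon is released by pancreatic alpha cells in fasting and acts on a receptor of hepatocytes that raises cyclic AMP. Protein kinase A then activates CREB and its coactivators, which switch on genes of glucose production and amino acid breakdown. T3 is the active thyroid hormone. It enters hepatocytes and binds the nuclear receptor THRB, which sits on DNA with a retinoid X receptor and controls genes of lipid, cholesterol and energy metabolism.

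Total counts over 13319 gene symbols averaged 12528310 ± 2067640 (SD, n = 4) in Gluc+T3, 16672813 ± 3456980 in Gluc, 7021746 ± 778879 in T3 and 16918458 ± 5190829 in Control. The biological coefficient of variation was 18.9% in Gluc+T3, 25.8% in Gluc, 19.2% in T3 and 43.2% in Control. All 4 T3 libraries ran in sequencing lane 5, and the other groups have 1 library in each of lanes 1 to 4. For a single gene, an interaction and a difference between lanes cannot be told apart, while Gluc+T3 against Gluc lies within lanes. The other 4 livers of the series, labelled Cp, entered only the normalisation and the estimate of spread. Control 2 stood apart in interferon-induced genes, with a summed level of 4570 CPM against 802 to 1020 CPM in the other Control livers. Gluc 3 held 4790 CPM in skeletal muscle genes, against 69.6 to 1330 CPM in the other livers. Alb, the main plasma protein made by hepatocytes, averaged 105000 CPM in Gluc+T3, 168000 CPM in Gluc, 88000 CPM in T3 and 152000 CPM in Control. In these bulk livers, fewer cells of a type and less RNA per cell cannot be told apart.

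The interaction was called for 482 of 12907 genes tested, or 3.73% (edgeR's quasi-likelihood test, Benjamini-Hochberg adjusted p under 0.05). It was lower than 0 for 276 genes, 2.14% of those tested, and higher for 206, 1.6%. At an unadjusted p under 0.05 there were 2173 genes, and the median interaction over all genes was 0.08 on the log2 scale. Without Control 3 the count was 821, of which 361 were higher and 460 lower, and 468 of the 482 genes were among them in the same direction. The count of higher genes was 124 without Gluc 2, 137 without Gluc 3 or T3 2, 136 without Gluc+T3 1 and 133 without Gluc+T3 4. None of the 482 had another sign in any of 8 other fits or of 16 fits with 1 library left out.

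Fewer genes were called for glucagon when T3 was present. Gluc+T3 against T3 gave 179 called genes (1.39%), 146 higher and 33 lower, whereas Gluc against Control gave 2732 (21.2%), 1191 higher and 1541 lower. Gluc+T3 against T3 gave 83 calls without Gluc+T3 1, 96 without Gluc+T3 2, 93 to 116 without any single T3 liver and 343 without Control 1. Gluc against Control gave 1988 to 3760 with 1 library left out. The count for Gluc+T3 against T3 also depended on the tool, with 339 calls by DESeq2 and 1028 by limma-voom with quality weights, where Gluc against Control gave 3053 by DESeq2 and 2736 by limma-voom. The T3 libraries had the lowest counts, and the part of depth in this difference between call counts was not tested. The sizes of the changes also differed. The standard deviation of the glucagon effect across genes was 0.468 with T3, against 0.813 without T3. Both values include the noise of the estimates. The effect without T3 uses Control, with a coefficient of variation of 43.2%, against 18.9% in Gluc+T3 and 19.2% in T3. The test used a pooled estimate of spread for each gene, common to all groups. The part of these unequal spreads in the call counts and in the sizes of the changes was not tested. Among the 2732 genes called for glucagon without T3, 2054 (75.2%) had the same sign with T3, and their median change in that direction was 0.23 with T3, against 0.98 without T3. The value without T3 is raised by the choice of these genes. Across all 12907 genes the 2 glucagon effects, which share no library, correlated at r = 0.439 (Spearman's rho 0.362). Genes are not independent replicates.

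T3 was followed by many called genes with glucagon and without it. Gluc+T3 against Gluc gave 2906 called genes (22.5%), 1595 higher and 1311 lower, and T3 against Control gave 2317 (18%), 944 higher and 1373 lower. The standard deviation of the T3 effect across genes was 0.856 with glucagon and 0.749 without. The correlation across genes was r = 0.583 (Spearman's rho 0.505). The T3 against Control count was 1528 to 1694 without any single T3 liver, and 1592 to 3179 without any single Control liver.

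**Figure D1:**
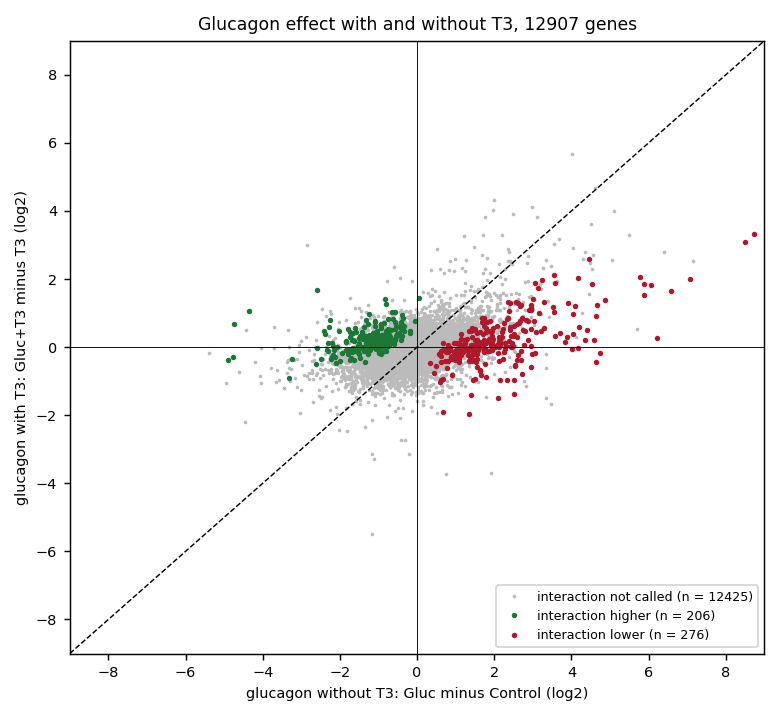
Each point is 1 of 12907 genes. The vertical axis is the log2 glucagon effect with T3 (Gluc+T3 minus T3), the horizontal axis the log2 glucagon effect without T3 (Gluc minus Control), and the dashed line marks equal effects. The 276 genes with a lower interaction lie right of the dashed line, with a median of 0.06 on the vertical axis and 33 of them called raised there, and the 206 with a higher interaction lie to its left.

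The most common form of interaction was a glucagon effect that was called without T3 and was not called with T3. Of the 276 genes lower in the interaction, 234 were raised by glucagon without T3 and not called with T3, and 33 were raised in both settings by different amounts. Their median glucagon effect was 0.06 with T3, against 1.79 without T3. Of the 206 genes higher in the interaction, 182 were lowered by glucagon without T3 and not called with T3. Their median glucagon effect was 0.21 with T3, against -1.12 without T3. A called interaction tests each such difference, and a glucagon effect that misses the threshold with T3 is not shown to be 0. Over all 12907 genes, glucagon was called for 1.39% with T3 and for 21.2% without T3. The genes were chosen by this same contrast, so these counts and medians, and those of the next paragraph, are no test.

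Read from the side of T3, the same genes changed mostly where glucagon was present. Of the 276 lower genes, 193 were lowered by T3 with glucagon and not called for T3 alone. Another 28 were lowered by T3 with glucagon and raised by T3 alone, and 42 were raised by T3 alone and not called with glucagon. Of the 206 higher genes, 146 were raised by T3 with glucagon and not called for T3 alone, and 20 were raised with glucagon and lowered by T3 alone. In the median, the T3 effect on the lower genes was -1.33 with glucagon and 0.28 without, and on the higher genes 1.08 with glucagon and -0.2 without. Against Control, Gluc+T3 livers had a median change of 0.41 over the lower genes and 0.02 over the higher genes.

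Among these called genes, the Gluc livers were mostly the ones that stood apart. In 216 of the 276 lower genes all 4 Gluc livers were above the other 12 livers, and in 129 of the 206 higher genes all 4 Gluc livers were below them. All 4 Gluc+T3 livers were below all 4 Gluc livers in 239 of the lower genes, and above them in 176 of the higher genes. Gluc+T3 livers were above every other liver in 16 of the higher genes. These counts describe genes chosen by the same contrast and are no test. The same counts were not made over all 12907 genes, so no background share stands beside them.

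**Figure D2:**
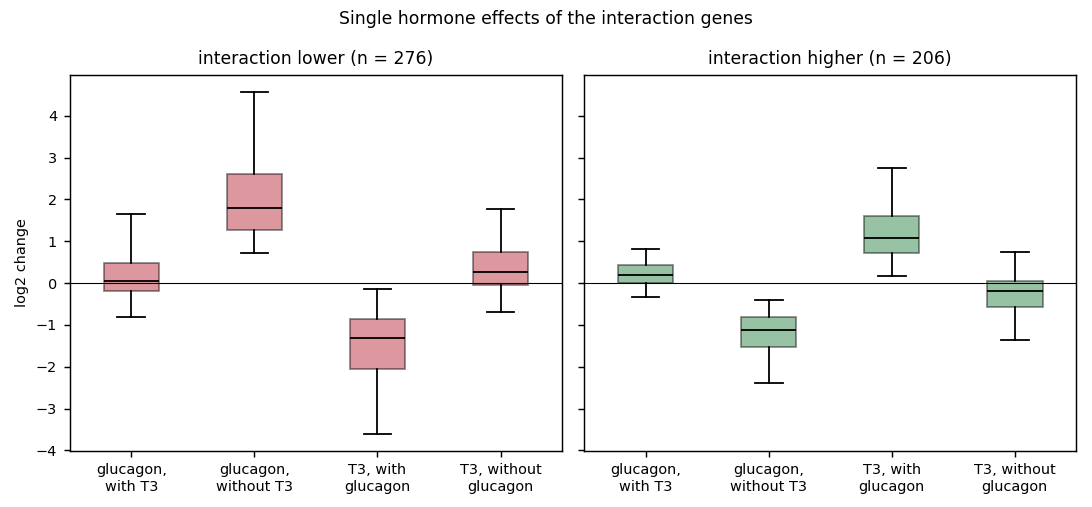
Boxes give the median and quartiles of the log2 change, and whiskers the 5th to 95th percentile over genes, for each hormone with and without the other. For the 276 genes with a lower interaction the glucagon median is 0.06 with T3 against 1.79 without T3, and for the 206 with a higher interaction it is 0.21 against -1.12. The genes were chosen by the contrast of these effects.

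Early target genes of CREB were the group with the largest share of calls among the 38 lists described. Of 26 members tested, 11 were called lower and 1 higher, 46.2% in all against 3.73% of all genes, with a median interaction of -1.85 against 0.08 over all genes. Glucagon raised 5 of the 26 with T3 and 19 without T3, and over all 12907 genes 146 with T3 and 1191 without T3. Of those 1191 genes, 270 were called lower in the interaction, a closer background for this list than all genes. The lists were chosen with earlier results of these data known, so these shares are no test. Without Control 2, 15 members were called lower and 1 higher, and the median was -2.36. The called member with a higher interaction was Cited2, a transcriptional coregulator. EdgeR called 0 members higher with the 16 libraries alone, and also without Control 3 or 4, without Gluc 1, 2 or 3, without any single Gluc+T3 liver, and without T3 2, 3 or 4.

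Ppargc1a, on chromosome 5 (51454250 to 51567726, minus strand, GRCm38 with GENCODE M21 as for all gene positions here), encodes the coactivator PGC-1alpha of gluconeogenic and mitochondrial genes. Its level was 16.9, 15.3, 11.5 and 12.7 normalised CPM in the 4 Gluc+T3 livers, 200, 190, 166 and 156 CPM in Gluc, 9.07, 6.16, 5.19 and 8.47 CPM in T3, and 13.5, 11.2, 9.41 and 8.97 CPM in Control. The Gluc livers were far above all others, and the Gluc+T3 livers overlapped Control. Had the 2 single effects multiplied, the Gluc+T3 level would have been 120 CPM, and the mean measured was 14.1 ± 2.46 CPM (SD, n = 4). The interaction was -3.07 ± 0.27 (log2 ± SE, edgeR adjusted p = 1.49e-06). Glucagon still raised Ppargc1a with T3, by 0.97 ± 0.19, against 4.04 ± 0.20 without T3.

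The NR4A genes encode orphan nuclear receptors that are induced within minutes to hours of a cyclic AMP signal. Nr4a3 (chromosome 4, 48045153 to 48086447, plus strand) had 7.94, 5.66, 1.89 and 4.55 CPM in Gluc+T3, 135, 193, 170 and 137 CPM in Gluc, 1.1, 0.262, 0.59 and 0.32 CPM in T3, and 0.214, 0.628, 0.588 and 0.302 CPM in Control. Every Gluc+T3 liver was above every T3 and Control liver and far below every Gluc liver. The interaction was -5.41 ± 0.75 (edgeR adjusted p = 0.000172). T3 and Control livers held only 2 to 13 counts of this gene, so the size of its interaction is imprecise (95% interval -6.97 to -3.85).

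Nr4a1 (chromosome 15, 101254269 to 101274795, plus strand) had 7.4, 8.14, 4.19 and 6.12 CPM in Gluc+T3, 200, 153, 107 and 73.5 CPM in Gluc, 9.93, 8.26, 14.6 and 6.07 CPM in T3, and 21.1, 21.7, 15.9 and 9.88 CPM in Control. The Gluc+T3 livers lay below every Control liver and overlapped the T3 livers. Its interaction was -3.55 ± 0.49 (edgeR adjusted p = 0.000172). Nr4a2 (chromosome 2, 57106830 to 57124003, minus strand) averaged 4.97 ± 1.08 CPM in Gluc+T3, 88.8 ± 30.8 CPM in Gluc, 1.18 ± 0.367 CPM in T3 and 1.58 ± 0.384 CPM in Control, with an interaction of -3.74 ± 0.42. Glucagon raised Nr4a2 and Nr4a3 with T3 as well, by 2.05 ± 0.30 and 3.09 ± 0.45, while for Nr4a1 the change with T3 was -0.59 ± 0.35 and not called.

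**Figure D3:**
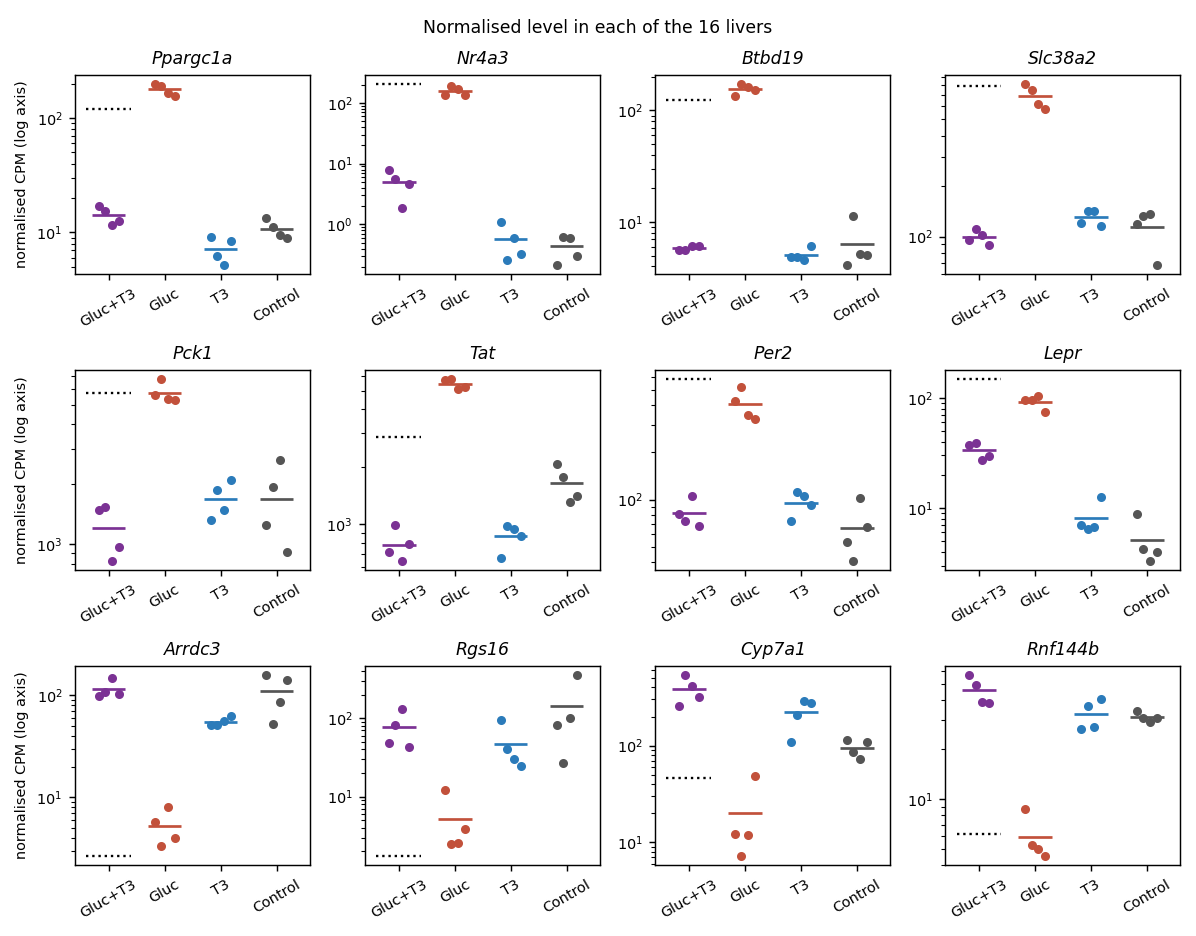
Each point is the normalised CPM of 1 liver on a log axis, horizontal bars are group means (n = 4), and the dotted line over Gluc+T3 is the level if the 2 single effects multiplied. In the upper 8 panels the Gluc livers are the highest and Gluc+T3 lies under the dotted line. In the lowest row the Gluc livers are the lowest and Gluc+T3 lies above it.

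Upstream sequences of these 4 genes and of Dusp1 are shown because CREB binds the letters TGACGTCA, the full cyclic AMP response element, and the shorter site TGACG. Each is the 250 bases before a RefSeq start site on GRCm38.p6, 5′ to 3′ on the gene's strand. Capitals mark TGACG or its reverse complement CGTCA, and in Dusp1 also the full element.
Nr4a1 (chr15:101266596-101266845, plus strand): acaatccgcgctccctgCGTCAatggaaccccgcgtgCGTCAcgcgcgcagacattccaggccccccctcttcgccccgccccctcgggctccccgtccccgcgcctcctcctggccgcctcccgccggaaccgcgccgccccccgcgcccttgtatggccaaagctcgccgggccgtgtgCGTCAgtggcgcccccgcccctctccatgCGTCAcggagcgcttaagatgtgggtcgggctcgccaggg
Nr4a2 (chr2:57124004-57124253, minus strand): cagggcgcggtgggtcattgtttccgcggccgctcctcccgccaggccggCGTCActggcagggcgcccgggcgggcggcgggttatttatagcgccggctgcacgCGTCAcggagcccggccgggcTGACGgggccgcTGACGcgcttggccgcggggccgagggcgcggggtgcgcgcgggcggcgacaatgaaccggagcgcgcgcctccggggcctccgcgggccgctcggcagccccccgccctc
Nr4a3 (chr4:48045055-48045304, plus strand): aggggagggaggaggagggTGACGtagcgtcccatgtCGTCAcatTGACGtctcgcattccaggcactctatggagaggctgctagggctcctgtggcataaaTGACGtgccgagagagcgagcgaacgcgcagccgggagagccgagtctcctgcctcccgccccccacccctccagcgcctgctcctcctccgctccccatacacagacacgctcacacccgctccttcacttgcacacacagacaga
Ppargc1a (chr5:51567726-51567975, minus strand): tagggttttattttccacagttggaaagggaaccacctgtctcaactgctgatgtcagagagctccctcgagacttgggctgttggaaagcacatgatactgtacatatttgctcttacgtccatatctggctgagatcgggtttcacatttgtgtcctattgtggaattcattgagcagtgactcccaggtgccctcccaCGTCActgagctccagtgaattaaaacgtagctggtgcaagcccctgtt
Dusp1 (chr17:26508473-26508722, minus strand): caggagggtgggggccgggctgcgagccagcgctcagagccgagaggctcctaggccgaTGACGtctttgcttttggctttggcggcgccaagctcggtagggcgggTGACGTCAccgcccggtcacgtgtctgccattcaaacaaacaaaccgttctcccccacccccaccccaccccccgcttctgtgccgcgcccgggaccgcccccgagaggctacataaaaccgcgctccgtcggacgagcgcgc
Each NR4A window held 4 short sites, at -233 to -36 in Nr4a1, -200 to -107 in Nr4a2 and -231 to -143 in Nr4a3, counted from the start site. Ppargc1a held 1, at -49 to -45. Dusp1, which encodes a phosphatase that switches off MAP kinases, held the full element at -143 to -136, and it was picked for display after its values were seen. Its level averaged 124 CPM in Gluc+T3, 507 CPM in Gluc, 99.8 CPM in T3 and 89.4 CPM in Control, with an interaction of -2.19 ± 0.43 (edgeR adjusted p = 0.00483).

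Over the RefSeq windows of 300 bases, from 250 before to 50 after a start site, 209 of the 276 lower genes had an entry. The full element on either strand was present in 17 of those 209 (8.13%), in 2 of 139 higher genes (1.44%), in 53 of 868 genes raised by glucagon without T3 (6.11%) and in 316 of 9253 tested genes (3.42%). The site TGACG, which every full element also contains, was present in 50.2% of lower genes, 26.6% of higher genes, 44.4% of genes raised by glucagon without T3 and 34.4% of tested genes. The mean GC content of the windows was 63.5 ± 8.3% (SD over genes) for lower genes, 60.7 ± 8.2% for higher genes, 62.8 ± 8.5% for genes raised by glucagon and 60.6 ± 9.1% for tested genes, and its part in the shares was not tested. Most lower genes were also raised by glucagon, and the sets overlap. The AGGTCA letters of a thyroid hormone response site were present in 15.3% of lower, 18% of higher and 15.5% of tested genes. A pair of AGGTCA sites in the same orientation 4 bases apart was in 0 of the 9253 windows. Of the 48 ranked and panel genes, 36 had an entry outside chromosome 18, 14 of them with TGACG and 0 with the full element. Windows on chromosome 18, where Crem lies, were left out of these 3 counts. A match of letters is a description of the window, not a measured binding site.

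Other cyclic AMP targets differed in how much of the glucagon effect was seen with T3. Sik1, a kinase that restrains CREB coactivators, had 559, 476, 408 and 502 CPM in Gluc+T3, 794, 817, 456 and 422 CPM in Gluc, 76.6, 156, 153 and 144 CPM in T3, and 39.4, 81.5, 59.1 and 29.3 CPM in Control. Gluc+T3 and Gluc livers overlapped, and glucagon raised Sik1 by 1.88 ± 0.30 with T3 and by 3.57 ± 0.32 without T3. Its interaction of -1.70 ± 0.42 (edgeR adjusted p = 0.0232) was not called without Gluc 2 (adjusted p = 0.0575). Crem, a CREB family gene with cyclic AMP inducible repressor forms, averaged 18.3 ± 3.92 CPM in Gluc+T3, 79.1 ± 10.4 CPM in Gluc, 4.78 ± 1.80 CPM in T3 and 10.6 ± 5.67 CPM in Control. Glucagon raised it in both settings, by 1.95 ± 0.35 with T3 and by 2.88 ± 0.33 without T3, and its interaction of -0.93 ± 0.46 was not called (edgeR adjusted p = 0.316). Pde4d, a phosphodiesterase that degrades cyclic AMP, averaged 8.12 ± 1.03 CPM in Gluc+T3, 63.2 ± 9.18 CPM in Gluc, 9.09 ± 2.09 CPM in T3 and 14.8 ± 3.94 CPM in Control, with an interaction of -2.26 ± 0.30 (edgeR adjusted p = 0.000124).

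Of 27 genes of gluconeogenesis, 4 (14.8%) were called, all lower, against 3.73% of all genes, with a median of -0.24 against 0.08. Glucagon raised 2 of them with T3 and 12 without T3, and over all 12907 genes 146 with T3 and 1191 without T3. Pck1 (chromosome 2, 173153048 to 173159273, plus strand) encodes the enzyme that commits carbon to glucose production. Its level was 1480, 1530, 828 and 964 CPM in Gluc+T3, 5600, 6760, 5380 and 5310 CPM in Gluc, 1330, 1870, 1480 and 2100 CPM in T3, and 1250, 1940, 2660 and 916 CPM in Control. The Gluc livers were above all others, which overlapped among themselves. The product of the single effects was 5760 CPM, the measured Gluc+T3 mean was 1200 ± 358 CPM, and the interaction was -2.26 ± 0.39 (edgeR adjusted p = 0.00153).

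G6pc, which encodes the catalytic subunit of glucose-6-phosphatase, averaged 684 ± 142 CPM in Gluc+T3, 2060 ± 466 CPM in Gluc, 381 ± 33.4 CPM in T3 and 582 ± 220 CPM in Control. Its interaction of -0.98 ± 0.31 was not called (edgeR adjusted p = 0.0966), and over the alternatives the adjusted p ran from 0.00602 without Control 1 to 0.213. Got1, the cytosolic aspartate aminotransferase, averaged 1720 ± 391 CPM in Gluc+T3, 3670 ± 287 CPM in Gluc, 393 ± 81.0 CPM in T3 and 311 ± 173 CPM in Control. Glucagon raised it by 2.13 ± 0.29 with T3 and by 3.56 ± 0.31 without T3. The interaction of -1.44 ± 0.39 (edgeR adjusted p = 0.0457) was lost in 14 of the alternatives. The 4th called gene, Fbp2, is the muscle form of fructose bisphosphatase, was low at 1.29 ± 0.508 CPM in Gluc+T3, 9.44 ± 3.37 CPM in Gluc, 1.48 ± 0.866 CPM in T3 and 1.13 ± 1.37 CPM in Control, and was lost in 13 alternatives.

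Among genes of amino acid handling, Tat and Slc38a2 had lower interactions. Of 21 amino acid transporters tested, 1 (4.76%), Slc38a2, was called by edgeR, a share near the 3.73% of all genes. The median interaction of these transporters was -0.24, with 10 higher than 0 and 11 lower. Tat (chromosome 8, 109990437 to 109999803, plus strand) is the first enzyme of tyrosine breakdown, with 716, 986, 646 and 784 CPM in Gluc+T3, 5680, 5760, 5130 and 5230 CPM in Gluc, 669, 978, 940 and 869 CPM in T3, and 2080, 1760, 1310 and 1410 CPM in Control. The Gluc livers were the highest, and Gluc+T3 and T3 livers overlapped below Control. Its interaction was -1.87 ± 0.30 (edgeR adjusted p = 0.000698). Slc38a2, a sodium-coupled importer of neutral amino acids, had 95.5, 111, 103 and 89.6 CPM in Gluc+T3, 818, 751, 622 and 578 CPM in Gluc, 120, 143, 142 and 116 CPM in T3, and 119, 133, 137 and 67.8 CPM in Control. The Gluc livers lay above the common range of the others, 67.8 to 143 CPM, and the interaction was -2.99 ± 0.28 (edgeR adjusted p = 2.1e-06).

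In the list of amino acid breakdown and the urea cycle, 2 of 60 members (3.33%), Tat and Got1, were called, a share near the 3.73% of all genes. The median interaction was 0.09, and glucagon raised 8 with T3 and 13 without T3. Over all 12907 genes glucagon raised 146 with T3 and 1191 without T3. The median glucagon effect on the list was 0.26 with T3, against 0.12 without T3.

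Clock genes were called lower in 5 of 22 tested (22.7%, against 3.73% of all genes called in either direction), with a list median of -0.24. EdgeR called 0 higher, with 5 higher at an unadjusted p under 0.05, while DESeq2 called 3 higher and limma-voom 2. DESeq2 called 306 of all genes higher and limma-voom 312. Without Control 1, Control 2, Control 3 or T3 1, edgeR called 2 higher. The 5 were Per2, Cry2, Per1, Nfil3 and Cry1, which encode repressors of the clock loop or, for Nfil3, of D-box genes. Per2 (chromosome 1, 91415982 to 91459324, minus strand) had 81, 73.2, 106 and 67.5 CPM in Gluc+T3, 425, 519, 346 and 324 CPM in Gluc, 72.7, 112, 106 and 91.7 CPM in T3, and 53.7, 40.9, 102 and 66.6 CPM in Control. The Gluc livers were above all others, and the other groups overlapped. The interaction was -2.83 ± 0.37 (edgeR adjusted p = 8.77e-05). Per1 had 155, 154, 153 and 155 CPM in the Gluc livers and at most 22.3 CPM in Gluc+T3, 54 CPM in T3 and 94.9 CPM in Control, with an interaction of -2.43 ± 0.45 (edgeR adjusted p = 0.00299). Dbp and Nr1d1, clock output and repressor genes, were not called, with interactions of 1.01 (edgeR adjusted p = 0.295) and 1.29 (edgeR adjusted p = 0.0897).

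Stress and cytokine genes gave a few calls. Of 28 targets of ATF4, the transcription factor of the integrated stress response, Cebpb, Chac1 and Ppp1r15a were called lower, 10.7% against 3.73% of all genes, with a list median of -0.03. Chac1, a glutathione-degrading enzyme, averaged 13.1 ± 4.96 CPM in Gluc+T3, 54.0 ± 22.0 CPM in Gluc, 12.3 ± 3.76 CPM in T3 and 11.0 ± 3.02 CPM in Control, with an interaction of -2.18 ± 0.43 (edgeR adjusted p = 0.00504). Lepr, the leptin receptor gene, had 37, 39.1, 27.4 and 29.9 CPM in Gluc+T3, 95.3, 95.2, 105 and 75.1 CPM in Gluc, 6.99, 6.42, 6.72 and 12.5 CPM in T3, and 8.77, 4.25, 3.33 and 4 CPM in Control. Gluc+T3 lay between Gluc and the other 2 groups with no overlap. Glucagon raised Lepr by 2.04 ± 0.31 with T3 and by 4.16 ± 0.33 without T3, and the interaction was -2.12 ± 0.43 (edgeR adjusted p = 0.00622). Socs3 and Stat3, of the cytokine response, had interactions of -1.97 ± 0.49 and -1.37 ± 0.35, and these calls were lost in 8 and 5 of the alternatives.

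The genes ranked lowest by interaction were BC057022, Nr4a3, Tas1r2, Mt2, Akr1b7, Btbd19, Fbf1, Nr4a2, Nr4a1 and Dos, with symbols ending in Rik left out of the ranking. Of those left out, 1700017B05Rik had an interaction of -3.68, lower than Nr4a1 and Dos. BC057022, a gene known only by its clone name in the files, had 8.7, 8.3, 5.75 and 10.7 CPM in Gluc+T3, 188, 241, 203 and 272 CPM in Gluc, 4.17, 9.04, 6.25 and 8.31 CPM in T3, and 2.19, 2.56, 6.27 and 1.58 CPM in Control. Gluc livers did not overlap the others, and Gluc+T3 overlapped T3 and Control. Its interaction of -5.94 ± 0.53 (edgeR adjusted p = 1.61e-06) was the lowest of the ranked genes. Btbd19 (chromosome 4, 117119219 to 117125725, minus strand), a BTB domain protein, had 5.57, 5.58, 6.08 and 6.12 CPM in Gluc+T3, 134, 174, 161 and 154 CPM in Gluc, 4.91, 4.85, 4.6 and 6.07 CPM in T3, and 4.12, 11.3, 5.19 and 5.05 CPM in Control. The Gluc livers stood apart and the other groups overlapped. The glucagon change was 0.20 ± 0.24 with T3, against 4.58 ± 0.25 without T3, and the interaction was -4.38 ± 0.33 (edgeR adjusted p = 3.54e-07).

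Several ranked genes rest on low or uneven levels. Tas1r2, a sweet taste receptor subunit, had 1.36, 1.75, 3.78 and 1.39 CPM in Gluc+T3 and 45.2, 96.3, 83.8 and 85.8 CPM in Gluc. Its T3 and Control libraries held 0 to 4 counts each, so no fold is given for it, and the call was lost without T3 2 or T3 3. Mt2, a metal-binding metallothionein, had 139, 208, 198 and 112 CPM in Gluc+T3, 906, 506, 538 and 745 CPM in Gluc, 103, 23.2, 74.9 and 545 CPM in T3, and 2.67, 59.7, 5.1 and 32.2 CPM in Control. T3 4 lay within the Gluc range and far above the other T3 livers. The interaction of -4.93 ± 1.15 (edgeR adjusted p = 0.0164) was not called without T3 4 (adjusted p = 0.06). Akr1b7, an aldo-keto reductase, averaged 24.9 ± 14.7 CPM in Gluc+T3, 99.7 ± 41.9 CPM in Gluc, 7.75 ± 8.08 CPM in T3 and 0.974 ± 0.832 CPM in Control.

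Genes with a higher interaction were led by Rgs16 and Arrdc3. Arrdc3 (chromosome 13, 80883384 to 80896042, plus strand) encodes an alpha-arrestin, a family of adaptors that bring receptors and transporters to ubiquitin ligases. It had 97.2, 107, 146 and 103 CPM in Gluc+T3, 5.79, 3.36, 8.05 and 4.03 CPM in Gluc, 50.4, 50.7, 55.4 and 62.6 CPM in T3, and 158, 52.2, 84.9 and 140 CPM in Control. The Gluc livers were far below all others, and Gluc+T3 and Control overlapped. Had the single effects multiplied, the Gluc+T3 level would have been 2.67 CPM, and the mean measured was 113 ± 22.1 CPM. The interaction was 5.40 ± 0.44 (edgeR adjusted p = 5.04e-07). Among 5 alpha-arrestin genes tested, 2 were called (40%, against 3.73% of all genes). The other was Txnip, also higher, at 1.17 ± 0.29 (edgeR adjusted p = 0.0241), a call lost in 9 of the alternatives.

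Rgs16 encodes a protein that ends signals of G protein-coupled receptors. It had 47.6, 82.6, 132 and 43.4 CPM in Gluc+T3, 12, 2.46, 2.59 and 3.82 CPM in Gluc, 94.9, 40.4, 30.2 and 24.3 CPM in T3, and 82.1, 26.6, 102 and 359 CPM in Control. The Gluc livers did not overlap the others, and Control 4 was the highest liver. The interaction was 5.43 ± 1.08 (edgeR adjusted p = 0.00518).

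Cyp7a1 (chromosome 4, 6265612 to 6275633, minus strand) encodes cholesterol 7-alpha-hydroxylase, which starts the classic route from cholesterol to bile acids. It had 258, 541, 409 and 321 CPM in Gluc+T3, 12.3, 7.24, 12 and 48.8 CPM in Gluc, 109, 208, 286 and 278 CPM in T3, and 114, 86.4, 72.5 and 109 CPM in Control. Gluc lay below all other groups, and Gluc+T3 lay above Control and overlapped T3. The glucagon change was 0.80 ± 0.43 with T3 and not called, against -2.26 ± 0.45 without T3, and the interaction was 3.06 ± 0.62 (edgeR adjusted p = 0.00619). Nr1h4, the bile acid receptor FXR, averaged 190 ± 44.8 CPM in Gluc+T3, 71.1 ± 7.84 CPM in Gluc, 202 ± 28.4 CPM in T3 and 242 ± 158 CPM in Control. Its interaction was 1.68 ± 0.41 (edgeR adjusted p = 0.0209), and 1.11 without Control 1, where it was still called. It was not called with the 16 libraries alone or without Gluc 2, Gluc+T3 3 or T3 1. These were the called members among 30 bile acid genes (6.67%, against 3.73% of all genes), whose median was 0.4.

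Of 31 genes of insulin signalling and FOXO targets, 4 were called higher, among them Arrdc3, Txnip and Sesn1, and 3 lower (Pck1, Pik3r1, Ddit4), 22.6% in all against 3.73% of all genes, with a median of 0.05. Rnf144b, a ubiquitin ligase, averaged 45.8 ± 8.91 CPM in Gluc+T3, 5.89 ± 1.91 CPM in Gluc, 32.8 ± 6.81 CPM in T3 and 31.4 ± 2.02 CPM in Control, and its interaction of 2.88 ± 0.28 (edgeR adjusted p = 3.11e-06) had a small error for its size. Kank1, a cytoskeletal scaffold, averaged 96.1 ± 10.1 CPM in Gluc+T3, 16.9 ± 2.03 CPM in Gluc, 101 ± 18 CPM in T3 and 85.3 ± 27.0 CPM in Control, with an interaction of 2.26 ± 0.28 (edgeR adjusted p = 5.39e-05). The other ranked genes were Cyp2d37-ps, Fam13a, Sgk2, Nav2 and Exph5, with interactions of 2.21 to 2.90. 8430408G22Rik, left out of the ranking for its symbol, had a higher one of 4.53. The reads of Cyp2d37-ps, a pseudogene, cannot be told apart with certainty from those of its family.

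**Figure D4:**
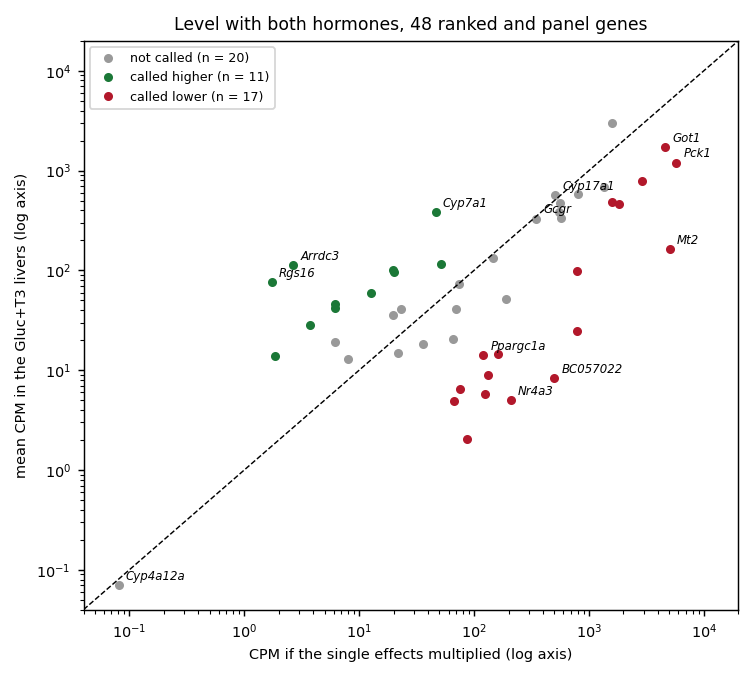
The vertical axis is the mean CPM in the 4 Gluc+T3 livers and the horizontal axis the CPM if the single effects multiplied, both on log axes, for 48 ranked and panel genes. The dashed line marks equality. Arrdc3 lies at 113 against 2.67 CPM and Ppargc1a at 14.1 against 120 CPM.

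Another form of interaction was a change that either hormone made alone and that the pair did not add to. Cebpb, a transcription factor of hepatocytes, averaged 453 ± 91.5 CPM in Gluc+T3, 499 ± 97.9 CPM in Gluc, 594 ± 82.3 CPM in T3 and 179 ± 73.0 CPM in Control, where the product would have been 1660 CPM. Both single effects were called, at 1.48 ± 0.25 for glucagon and 1.73 ± 0.25 for T3, and the interaction was -1.87 ± 0.35 (edgeR adjusted p = 0.00311). Por, the reductase that feeds electrons to cytochromes P450, averaged 753 ± 78.7 CPM in Gluc+T3, 856 ± 181 CPM in Gluc, 892 ± 202 CPM in T3 and 318 ± 118 CPM in Control, with an interaction of -1.67 ± 0.33 (edgeR adjusted p = 0.00536). Bcl3, a regulator of NF-kappaB that T3 is known to induce in liver, had 482, 441, 474 and 465 CPM in Gluc+T3, 352, 325, 290 and 339 CPM in Gluc, 487, 587, 402 and 551 CPM in T3, and 17.9, 138, 130 and 77.2 CPM in Control. Gluc+T3 and T3 overlapped above Gluc. Its interaction of -1.97 ± 0.50 (edgeR adjusted p = 0.0277) was not called with the 16 libraries alone or without Gluc+T3 4, T3 2 or T3 4.

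The same form in the other direction was seen for genes that either hormone lowered. Fam13a averaged 13.8 ± 4.80 CPM in Gluc+T3, 12.3 ± 3.70 CPM in Gluc, 9.08 ± 5.04 CPM in T3 and 59.6 ± 25.1 CPM in Control, with an interaction of 2.86 ± 0.61 (edgeR adjusted p = 0.00851). Hmgcs1, an early enzyme of cholesterol synthesis, averaged 26.1 ± 2.77 CPM in Gluc+T3, 23.1 ± 4.46 CPM in Gluc, 22.9 ± 5.10 CPM in T3 and 49.4 ± 16.6 CPM in Control, with an interaction of 1.28 ± 0.30 (edgeR adjusted p = 0.0165) that was not called without Gluc 2. Cyp3a11, a drug-metabolising cytochrome P450, averaged 92.6 ± 11.7 CPM in Gluc+T3, 121 ± 18.9 CPM in Gluc, 97.9 ± 17.1 CPM in T3 and 537 ± 187 CPM in Control. Its interaction of 2.07 ± 0.51 (edgeR adjusted p = 0.0245) was lost in 6 alternatives, and sequences of the Cyp3a family are alike enough that reads may be shared. In the genes of both directions the Control livers were the group that stood apart, and Control had the largest spread of the 4 groups.

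For 6 genes the glucagon effect was called in opposite directions. Elovl3, an elongase of very long fatty acids, had 18.9, 14.3, 18.1 and 21.3 CPM in Gluc+T3, 406, 253, 248 and 486 CPM in Gluc, 36.4, 58.5, 46.6 and 52.9 CPM in T3, and 194, 57.7, 148 and 133 CPM in Control. Gluc livers were the highest, and Gluc+T3 livers lay below all others. Glucagon changed it by -1.42 ± 0.34 with T3 (edgeR adjusted p = 0.0437) and by 1.39 ± 0.34 without T3 (edgeR adjusted p = 0.00556), an interaction of -2.81 ± 0.48. Sgk1, a kinase of salt and stress responses, changed by -0.95 with T3 (edgeR adjusted p = 0.0456) and by 1.51 without T3, and 2310014L17Rik, at 0.486 to 2.31 CPM, by -1.97 with T3 and 1.34 without T3. Exph5, a Rab27 effector, averaged 58.8 ± 10.1 CPM in Gluc+T3, 12.8 ± 2.18 CPM in Gluc, 30.2 ± 6.40 CPM in T3 and 30.6 ± 9.34 CPM in Control, and glucagon changed it by 0.96 ± 0.20 with T3 (edgeR adjusted p = 0.0182) and by -1.25 ± 0.21 without T3. S1pr1, a sphingosine phosphate receptor, changed by 0.70 with T3 (edgeR adjusted p = 0.0456) and by -0.85 without T3. These genes were named by their class after the values were seen.

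For several T3 targets no interaction was called. Dio1, the deiodinase that is a standard readout of thyroid hormone in liver, had 489, 501, 511 and 390 CPM in Gluc+T3, 189, 115, 95.1 and 127 CPM in Gluc, 549, 433, 352 and 461 CPM in T3, and 143, 35.2, 108 and 133 CPM in Control. The groups with T3 lay above those without it. T3 raised Dio1 by 1.85 ± 0.31 with glucagon and by 2.10 ± 0.31 without it. The interaction of -0.26 ± 0.43 was not called, with a 95% interval of -1.14 to 0.63. Cyp17a1, a steroid hydroxylase, averaged 564 ± 147 CPM in Gluc+T3, 38.5 ± 5.15 CPM in Gluc, 387 ± 138 CPM in T3 and 29.3 ± 11.7 CPM in Control, with an interaction of 0.15 ± 0.45 (95% interval -0.79 to 1.1). Cyp4a12a, a fatty acid hydroxylase of male liver, averaged 0.0701 CPM in Gluc+T3, 15 ± 8.00 CPM in Gluc, 0.263 CPM in T3 and 48.8 ± 29.4 CPM in Control, and with 0 to 4 counts per T3 liver its glucagon effect with T3 could not be measured.

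Of 30 genes known to respond to thyroid hormone, 2 were called higher (Cyp7a1, Txnip) and 3 lower (Ppargc1a, Slc25a25, Bcl3), 16.7% in all against 3.73% of all genes, with a median of -0.1. Slc25a25, a mitochondrial carrier of ATP and phosphate, averaged 110 ± 7.21 CPM in Gluc+T3, 782 ± 323 CPM in Gluc, 217 ± 14.7 CPM in T3 and 174 ± 80.2 CPM in Control, with an interaction of -3.14 ± 0.39 (edgeR adjusted p = 6e-05). Hr, a corepressor gene that T3 induces, averaged 20.6 ± 6.30 CPM in Gluc+T3, 9.61 ± 5.17 CPM in Gluc, 14.5 ± 4.55 CPM in T3 and 2.12 ± 1.60 CPM in Control, and its interaction of -1.63 ± 0.67 was not called (edgeR adjusted p = 0.21). Stat5a, a transducer of growth hormone signals, had 41.4, 43.3, 47.9 and 50.2 CPM in Gluc+T3, 4.18, 3.04, 4.89 and 2.72 CPM in Gluc, 64.7, 56.6, 49.8 and 59.3 CPM in T3, and 11.5, 9.32, 8.53 and 12.2 CPM in Control. Its log2 interaction was 1.14 ± 0.23 (edgeR adjusted p = 0.00612), but on the linear CPM scale Gluc+T3 fell 5.22 CPM short of the sum of the single effects, a departure of -5.22 CPM. The direction of its interaction thus depends on the scale.

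For receptors and signalling genes through which the 2 hormones act, the counts were near the background of 3.73% of all genes called. Of 26 genes of the glucagon receptor and the cyclic AMP chain 0 were called, with a median of -0.14, and of 21 thyroid hormone receptors, carriers and coregulators 0, with a median of 0.12 (edgeR). At an unadjusted p under 0.05 there were 3 in the glucagon list and 4 in the thyroid list, beside 2173 of all 12907 genes. DESeq2 called 0 in the glucagon list and 1 in the thyroid list, beside 683 of all genes. Limma-voom called 1 in the glucagon list and 2 in the thyroid list, beside 757 of all genes. Gcgr, the glucagon receptor, had 297, 299, 438 and 289 CPM in Gluc+T3, 295, 274, 248 and 308 CPM in Gluc, 528, 417, 333 and 455 CPM in T3, and 380, 199, 455 and 362 CPM in Control. The groups overlapped, and the interaction was -0.08 ± 0.32 (95% interval -0.74 to 0.58). Thrb averaged 15 ± 1.97 CPM in Gluc+T3, 30.4 ± 6.72 CPM in Gluc, 22.1 ± 2.20 CPM in T3 and 30.6 ± 8.55 CPM in Control. T3 with glucagon changed it by -1.02 ± 0.19 on the log2 scale (edgeR adjusted p = 0.000557), and its interaction of -0.55 ± 0.27 was not called (edgeR adjusted p = 0.297).

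Respiratory chain genes (51 tested), fatty acid oxidation and PPAR-alpha targets (48) and genes of the tricarboxylic acid cycle (26) had 0 interaction calls by edgeR, against 3.73% of all genes. The median was -0.06 for the respiratory chain, 0.1 for fatty acid oxidation and 0.17 for the tricarboxylic acid cycle. At an unadjusted p under 0.05 there were 3 respiratory chain genes, 6 of fatty acid oxidation and 2 of the tricarboxylic acid cycle, beside 2173 of all 12907 genes. DESeq2 called 1 gene of fatty acid oxidation and 0 of the other lists, beside 683 of all genes. Limma-voom called 3 of fatty acid oxidation, 2 of the tricarboxylic acid cycle and 0 of the respiratory chain, beside 757 of all genes. Of 35 genes of fatty acid and triglyceride synthesis, Elovl3 and Lpin1 were called lower, 5.71% against 3.73% of all genes. Lpin1, a phosphatidate phosphatase, averaged 277 ± 97.1 CPM in Gluc+T3, 1190 ± 210 CPM in Gluc, 161 ± 56.2 CPM in T3 and 189 ± 55.3 CPM in Control, with an interaction of -1.87 ± 0.39 (edgeR adjusted p = 0.00714). Of 28 cholesterol genes Hmgcs1 was called (3.57%), and of 35 cell cycle genes Bub1b (2.86%), both shares near the 3.73% of all genes. Bub1b had an interaction of 1.66 ± 0.46, and its call was lost in 16 alternatives.

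**Figure D5:**
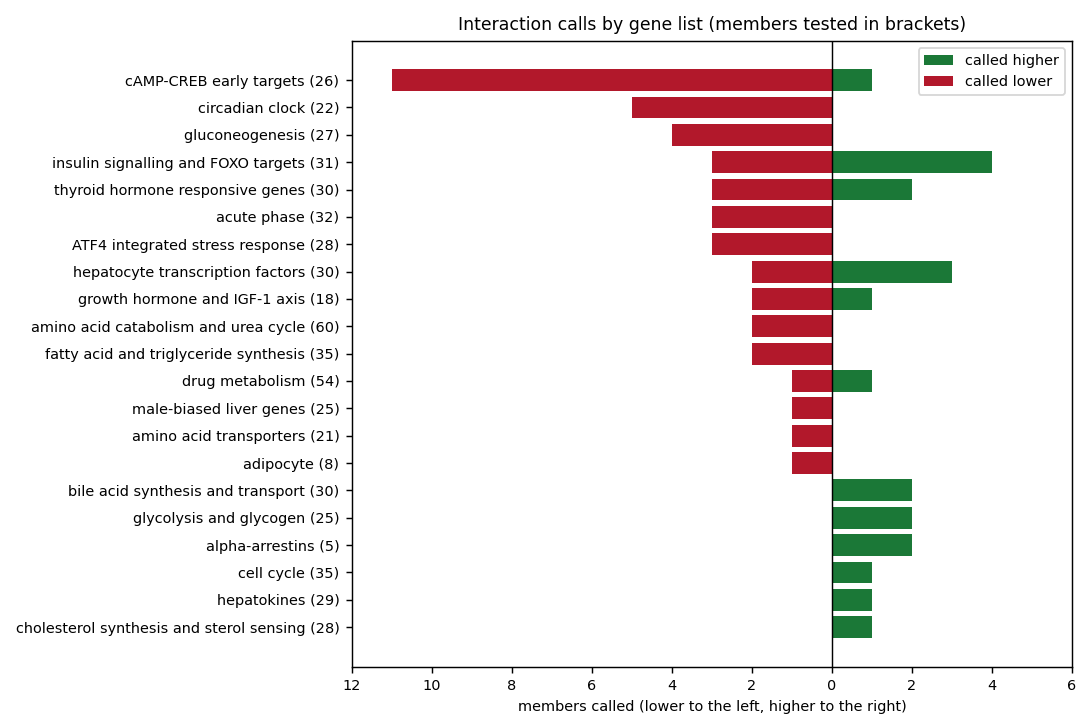
Bars count the members of each gene list called higher (right) or lower (left) in the interaction, for the 21 lists with at least 1 call, with the number tested in brackets. The early CREB targets have 11 lower and 1 higher of 26, and the clock genes 5 lower of 22.

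Control 2 changed the result for Igfbp1 and Fgf21. Igfbp1, an insulin-repressed secreted binding protein, had 40.6, 91.2, 21.3 and 55.4 CPM in Gluc+T3, 918, 377, 212 and 236 CPM in Gluc, 55.2, 42.9, 31 and 65.7 CPM in T3, and 46.8, 346, 26.6 and 30.4 CPM in Control. Control 2 lay within the Gluc range and far above the other Control livers. The Igfbp1 interaction was -1.85 ± 0.94 with all livers (edgeR adjusted p = 0.327) and -3.57 without Control 2 (edgeR adjusted p = 0.0025). Fgf21, a hepatokine of fasting, averaged 40.9 ± 14.9 CPM in Gluc+T3, 17.3 ± 4.43 CPM in Gluc, 60.4 ± 24.3 CPM in T3 and 14.9 ± 22.8 CPM in Control, with Control 2 at 48.8 CPM and the other Control livers at 1.02 to 6.96 CPM. Its interaction was -0.75 ± 0.98 with all livers and -2.93 without Control 2 (edgeR adjusted p = 0.0105).

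Genes of other cell types also differed between the groups. The summed level of 24 macrophage and Kupffer cell genes was 1530 to 1810 CPM in Gluc+T3, 828 to 986 CPM in Gluc, 2080 to 2820 CPM in T3 and 931 to 2240 CPM in Control, with 0 members called by edgeR, 5 at an unadjusted p under 0.05, and a median interaction of 0.47. DESeq2 called 0 and limma-voom 1, and edgeR without Control 3 called 5. For 34 interferon-induced genes the ranges were 1060 to 1940 CPM in Gluc+T3, 532 to 854 CPM in Gluc, 1330 to 2560 CPM in T3 and 802 to 4570 CPM in Control. Their median interaction was 1.75 with 0 called by edgeR, 18 at an unadjusted p under 0.05, and 0.29 without Control 2. DESeq2 called 4 and limma-voom 0. Without Control 3, 7 of them were called higher, and without Control 4, 6. Of all 12907 genes, edgeR called 482 (3.73%), DESeq2 683 and limma-voom 757, with 2173 at an unadjusted p under 0.05. EdgeR called 361 of 13022 genes higher without Control 3, and 204 of 12989 without Control 4. The 8 adipocyte genes summed to 502 to 731 CPM in Gluc+T3, 3800 to 6660 CPM in Gluc, 503 to 1330 CPM in T3 and 1130 to 5290 CPM in Control, most of it from Car3, which hepatocytes also express. The defining adipocyte gene Adipoq averaged 0.679 ± 0.75 CPM in Gluc+T3, 3.68 ± 6.27 CPM in Gluc, 1.41 ± 2.23 CPM in T3 and 0.482 ± 0.597 CPM in Control. Gluc 3 held 13.1 CPM of Adipoq and the other Gluc livers 0.259 to 0.776 CPM. T3 3 held 4.72 CPM and the other T3 livers 0 to 0.799 CPM. The median interaction of the adipocyte genes was -1.54 with all livers and -0.47 without Control 2 and Gluc 3. Plin4 was called lower by edgeR but not by limma-voom. Skeletal muscle genes summed to 527 CPM in Gluc+T3 4, 4790 CPM in Gluc 3 and 1330 CPM in Control 2, and 0 of 27 were called by edgeR, DESeq2 or limma-voom, with 0 at an unadjusted p under 0.05. The part of these cells in the interaction counts was not tested, beyond the count of 525 calls without Control 2 and Gluc 3, of which 411 were among the 482.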

How the data were processed

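RNA was sequenced from 20 mouse livers. The authors deposited raw counts per gene symbol. The submitters' processing notes name HTSeq and mm10 without versions. No source used here names the aligner, the gene annotation or the strand setting, so overlapping or near-identical genes may share reads. Per the labels' protocols, RNA was prepared with a Qiagen kit, and Lexogen is named for strand synthesis. Library totals ran from 6091917 to 23195658 counts and were lowest in T3 livers.

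Groups follow the treatment label. Of 13319 symbols, 12907 passed filterByExpr (minimum count 10, minimum total 15) and 412 were dropped. The test was edgeR 4.0.16's quasi-likelihood test in R 4.3.3 on TMM-normalised counts of all 20 libraries, fitted with a mean per group (15 residual degrees of freedom, 5 prior), with Benjamini-Hochberg adjustment over all genes of a comparison. It was tested on simulated counts with equal spread in all groups and no lane effect, unlike these data. Normalised CPM uses TMM library sizes. P-values measure the spread between livers within groups, estimated for each gene over all 20 libraries together. This estimate does not let the spread differ between groups, although it was largest in Control. Alternatives used RLE factors, no filter, DESeq2 1.42.0, limma 3.58.1 (voom with sample quality weights), the 16 libraries alone, replicate blocks, and libraries left out.

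The members, gene lists and named genes were chosen with earlier results of these data known. Named genes were up to 10 highest and 10 lowest interactions among genes called both with and without Control 2 that averaged at least 20 CPM and whose symbol is not Gm with a number or one ending in Rik, the 3 members of each list with the smallest p, and a panel of 33. Any other gene named was chosen after its values were seen. Positions come from GENCODE M21, which matched 12113 symbols by name, and promoter windows from RefSeq on GRCm38.p6. Some results that fall under these rules are not reported here.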

Additional observations from a re-analysis of the deposited data

Results flagged for a closer look

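The glucagon effect differed with and without T3 for 482 genes by the test of the difference itself, and the report describes them. Of 192 sets of 4 livers screened in the ranked and panel genes, 19 held 1 liver whose gap to its nearest neighbour exceeded Dixon's 95% limit. Chance alone flags about 1 in 20 such sets. Levels here are normalised CPM.

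Control 2 was high in 4 of these genes. It held 346 CPM of Igfbp1 against 26.6 to 46.8 CPM in the other Control livers, 48.8 CPM of Fgf21 against 1.02 to 6.96 CPM, 40.8 CPM of Pdk4 against 4.12 to 9.41 CPM, and 11.3 CPM of Btbd19 against 4.12 to 5.19 CPM. Control 3 held 36.9 CPM of Fbf1 against 12.1 to 13.0 CPM, and Control 1 held 1.39 CPM of Dos against 6.13 to 7.06 CPM.

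Among Gluc+T3 livers, Gluc+T3 3 was flagged for 4 genes, with 35.5 CPM of Sgk2 against 43.7 to 44.8 CPM in the others, 3.78 CPM of Tas1r2 against 1.36 to 1.75 CPM, 438 CPM of Gcgr against 289 to 299 CPM, and 695 CPM of Srebf1 against 243 to 319 CPM. Gluc+T3 1 held 103 CPM of Me1 against 142 to 145 CPM.

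Among Gluc livers, Gluc 1 held 12.0 CPM of Rgs16 against 2.46 to 3.82 CPM in the others and 3440 CPM of Thrsp against 1150 to 1410 CPM. Gluc 4 held 48.8 CPM of Cyp7a1 against 7.24 to 12.3 CPM, and 1410 CPM of Srebf1 against 1360 CPM in each of the others. Gluc 3 held 25.9 CPM of Pdk4 against 8.41 to 10.7 CPM, and Gluc 2 held 7.37 CPM of Nr0b2 against 15.7 to 17.3 CPM. Among T3 livers, T3 4 held 545 CPM of Mt2 against 23.2 to 103 CPM, and T3 1 held 76.6 CPM of Sik1 against 144 to 156 CPM. The causes were not tested.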

How the results depend on the processing

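RLE factors gave 471 interaction calls, no filter on low counts 479 and DESeq2 683. Of the 482 genes, 468 were called in the same direction with RLE factors, 477 without the filter and 482 by DESeq2. Limma-voom with quality weights gave 757 interaction calls, 312 higher and 445 lower, with 1028 calls for Gluc+T3 against T3 and 4619 for Gluc+T3 against Gluc. DESeq2 gave 339 for Gluc+T3 against T3. With the 16 libraries alone, 370 genes were called, 136 of them higher. Leaving out 1 library gave 343 (without Gluc 2) to 821 (without Control 3) interaction calls, 124 to 361 higher and 219 to 460 lower. It gave 83 to 343 calls for Gluc+T3 against T3, 2264 to 3651 for Gluc+T3 against Gluc, 1988 to 3760 for Gluc against Control and 1528 to 3179 for T3 against Control. On the linear CPM scale 1 named gene reversed, Stat5a (-5.22 CPM). The causes were not tested. The T3 libraries had the fewest counts, which limits the precision of the interaction, of Gluc+T3 against T3 and of T3 against Control for genes with few reads.

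Replicate numbers follow the lane in all groups but T3. Between groups that share lanes, same-numbered livers' deviations from their group means correlated at -0.318 to 0.32, with 4 of 12 correlations over 0.1, so the numbers are not shown to pair the livers. With the replicate number as a block there were 435 interaction calls, and with the lane as a block 527. The lane block gave the T3 libraries no lane term, since lane 5 holds no other library, so it does not separate T3 from its lane. Of the 482 genes, 413 were called in the same direction with the number block and 451 with the lane block.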
